A study of Homo sapiens with 9 samples.

Results

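The imprinted H19-IGF2 and KCNQ1 domain is a stretch of 910 kb on chromosome 11 (hg19, 2000000 to 2910000) that holds H19, IGF2, KCNQ1 and CDKN1C. Its members here were all peaks of the 5 deposited peak lists that overlapped this stretch. There were 33 such peaks among the 47426 peaks of the series. The CTCF list gave 24 of them, the ZEB1 list of unmodified MiaPaCa2 cells gave 5 and the ZEB1 list of RKO cells gave 4. Both clone lists gave 0. The choice used position only and no measured value.

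The peaks came from chromatin immunoprecipitation with sequencing (ChIP-seq), which maps the places on the genome where a protein is bound. ZEB1 was mapped in the delta-Repeat clone, the WT clone, unmodified MiaPaCa2 and unmodified RKO, and CTCF in unmodified MiaPaCa2. The MiaPaCa2 line derives from a pancreatic ductal adenocarcinoma, the RKO line from a colon carcinoma. The delta-Repeat clone was isolated by dilution from MiaPaCa2 cells given plasmids for Cas9 nickase together with paired guides to repeats that lie upstream of the MIR200A/B locus. Its control, the WT clone, came by dilution from MiaPaCa2 cells given plasmids with Cas9 nickase. Each clone is 1 clonal line, and the MIR200A/B locus is on another chromosome than this domain. Every condition had 1 sample, so no difference between lists can be set against a spread between cultures, and no test was made. Of the 9 samples, 4 were input DNA and were not analysed here.

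CTCF is a zinc-finger protein that marks insulators and the anchors of chromatin loops, and H19-IGF2 is the textbook case of its action at an imprinted locus. There CTCF binds the imprinting control region upstream of H19 on the maternal allele, where that DNA is unmethylated, and keeps enhancers away from IGF2. On the paternal allele the region is methylated, CTCF does not bind, and IGF2 is active. The neighbouring KCNQ1 cluster has its own control region, at the start of the non-coding RNA KCNQ1OT1 inside KCNQ1, and this RNA silences CDKN1C on the paternal chromosome. ZEB1 is a repressor that binds E-box sequences and is known for switching off epithelial genes. A peak list does not tell the parental alleles apart, so none of the values below belongs to 1 allele.

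The authors' fold is a linear enrichment at the peak summit over the caller's background. Folds were ranked, filtered and summarised by list and not compared between lists, and the percentile of a peak is the share of its list at or below its fold. The −log10 q is the authors' caller's significance of the peak.

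H19 makes a long non-coding RNA and lies next to the imprinting control region. The RefSeq promoter of H19 (GRCh38.p14, chr11:2001217-2001516, minus strand, 250 bases before and 50 after the start) is shown so that the letters at the annotated start of the gene can be read for CTCF and ZEB1 motifs. Capitals mark the letters that matched a searched motif.
H19 promoter: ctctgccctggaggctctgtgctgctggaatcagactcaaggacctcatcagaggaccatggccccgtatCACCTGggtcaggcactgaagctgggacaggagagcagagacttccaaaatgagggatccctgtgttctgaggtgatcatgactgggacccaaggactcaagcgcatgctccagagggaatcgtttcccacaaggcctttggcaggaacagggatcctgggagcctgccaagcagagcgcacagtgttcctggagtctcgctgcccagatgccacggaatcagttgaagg
The motifs searched on both strands were a CTCF core motif and the E-boxes CAGGTG and CAGGTA, which have their first 5 letters in common and cannot match at the same place on 1 strand. The window held 1 match, CACCTG, the reverse complement of CAGGTG, at bases 71 to 76. CAGGTG was found in 20.6% of the 35116 promoters in the table, CAGGTA in 9.83% and the CTCF core motif in 1.77%. The H19 gene of this annotation is 6.09 kb long, against 2.7 kb for the H19 stretch used in hg19, so its start need not be the edge of that stretch. The window was not placed against the peaks, because the builds differ.

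The stretch just upstream of H19 (2019101 to 2025000), which holds the imprinting control region, carried 2 CTCF peaks in unmodified MiaPaCa2 cells. The peak nearer to H19 lay from 2019584 to 2019955, 483 bp from the edge of the H19 stretch, with fold 13.2 and −log10 q 25.5. The other, from 2023477 to 2024456, had fold 9.80 and −log10 q 16.6. Both were of middling strength, at percentiles 64.0 and 43.4 of the CTCF list. The farther peak was 980 bp wide, at percentile 99.5 of the widths in the list, and its summit lay 706 bp from its left edge. Their summits were 4426 bp apart. The H19 stretch used here (2016400 to 2019100) held 0 CTCF peaks. Neither it nor the stretch upstream of it held a ZEB1 peak in any of the 4 ZEB1 lists. The annotated H19 gene is longer than this stretch, whose edges are rounded. The 483 bp therefore do not tell a peak within the gene from a peak beside it.

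**Figure D1:**
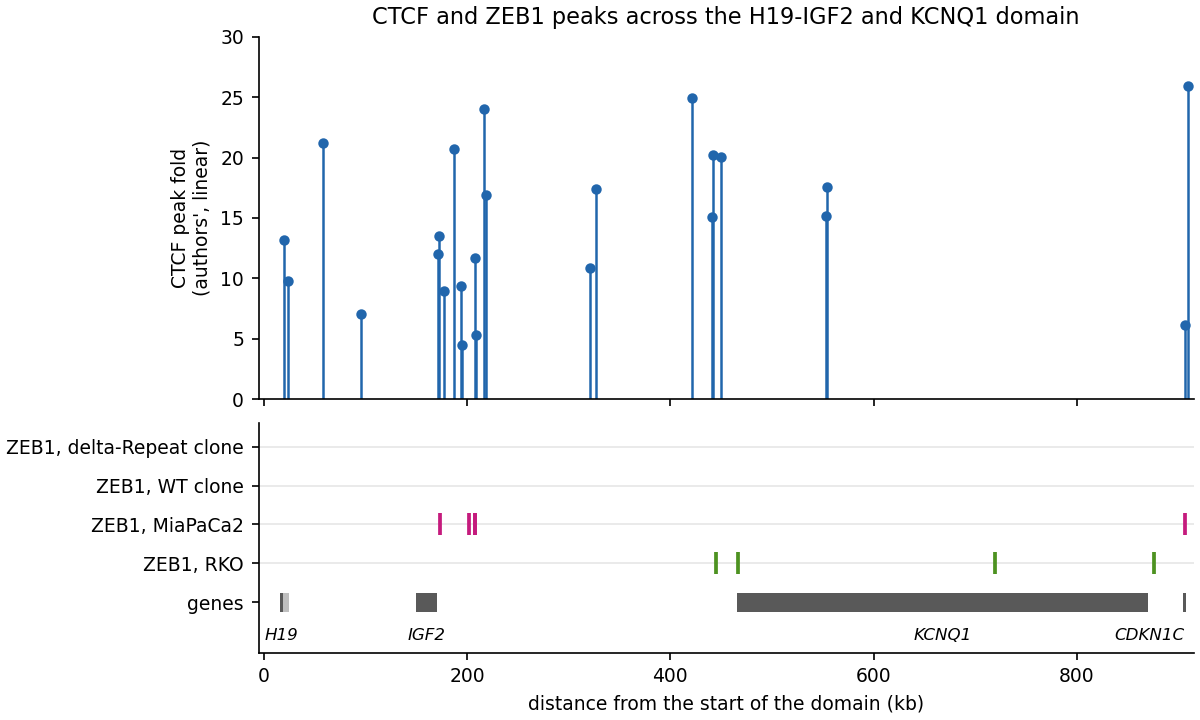
CTCF peaks (upper panel, height is the authors' fold) and ZEB1 peaks of the 4 ZEB1 lists (lower panel, ticks) against the distance from the start of the domain in kb, with the member genes as dark bars and the stretch upstream of H19 as a light bar. CTCF peaks gather beyond IGF2 and are missing over most of KCNQ1, both clone rows are empty, and the 5 MiaPaCa2 and 4 RKO ZEB1 peaks stand at different places.

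Between the control region and IGF2, a stretch of 125 kb held 2 CTCF peaks. One, from 2057923 to 2058530, was strong, at fold 21.2 and rank 2667 of 31754. The other, from 2095499 to 2095847, was weak, at fold 7.07, percentile 22.7 and −log10 q 9.17. IGF2 encodes a fetal growth factor of the insulin family. Its own stretch (2150300 to 2170800) held 0 CTCF and 0 ZEB1 peaks. The next CTCF peak began at 2171436, which is 635 bp past the edge of that stretch. IGF2 is read from right to left on this chromosome, so this peak lay on the side from which the gene is read. The edges of the stretches are rounded, so a distance as short as this does not tell a peak within the gene from a peak beside it.

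That peak opened the densest part of the domain. From 2171436 to 2218856, within 47.4 kb, 10 CTCF peaks followed each other with less than 20 kb between neighbouring summits. Their folds ran from 4.51 to 24.1. Of the 20579 such runs in the CTCF list, single peaks included, 12 held 10 or more peaks, and the domain's run is among these 12. The median run was 1 peak and the longest 16. The limit of 20 kb was chosen after seeing the data. With 10 kb the longest run of the domain held 6 peaks, and with 40 kb it held 10. The run includes pairs of peaks with edges 487, 78 and 272 bp apart. Joining peaks under 1 kb apart would shorten it, and its place among the runs was not counted that way.

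Within the run, 3 peaks were strong. The peak from 2215996 to 2216876 was 881 bp wide and ranked 1549 with fold 24.1. Those from 2187244 to 2187761 and from 2218441 to 2218856 had folds of 20.7 and 16.9. The widest CTCF peak of the domain also lay here, from 2172448 to 2173599, with 1152 bp at width percentile 99.8 and a fold of 13.5. Of middling strength were the first peak of the run with a fold of 12.0, one from 2207784 to 2208335 with 11.7, one from 2194342 to 2194816 with 9.40 and one from 2177625 to 2178089 with 8.97. The 2 weakest CTCF peaks of the domain were 200 bp wide each and stood close to stronger ones. One, from 2194895 to 2195094 with a fold of 4.51, had its summit 319 bp from that of its neighbour, the closest pair of the domain. The other, from 2208608 to 2208807 with a fold of 5.35, had its summit 537 bp from that of its neighbour. Whether such pairs are 2 bound places or 1 place split by the caller was not tested.

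The rest of the stretch between IGF2 and KCNQ1, which measures 295 kb in all, held 6 more CTCF peaks in 2 groups. In the GRCh38.p14 gene order INS, TH, ASCL2, TSPAN32, CD81, TSSC4 and TRPM5 lie between IGF2 and KCNQ1. INS encodes insulin and TH the enzyme that starts catecholamine synthesis, while ASCL2 encodes a transcription factor of trophoblast and intestinal stem cells. The peaks were not assigned to these genes, because no hg19 annotation was used here. A pair lay at 2320548 to 2320989 and 2326477 to 2326968, with folds of 10.8 and 17.4. A group of 4 ran from 2421441 to 2449903. It opened with the second strongest CTCF peak of the domain, from 2421441 to 2421858, whose fold of 25.0 ranked 1263 in the list. The other 3 began at 2440871, 2441927 and 2449391 and had folds of 15.0, 20.2 and 20.1. The last of them ended 16096 bp before KCNQ1.

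KCNQ1 encodes a potassium channel of heart and epithelia, and KCNQ1OT1 is transcribed against it from within. The gene covers 404 kb, or 2466000 to 2870400, and held 2 CTCF peaks. They lay at 2552629 to 2553212 and 2553870 to 2554423, with folds of 15.2 and 17.6. Their −log10 q was 46.1 and 69.0, and their summits were 1361 bp apart. After the second of them no CTCF peak followed for 352 kb, up to 2906404. This was the widest CTCF gap of the domain. Of the 1600 other neighbouring pairs on chromosome 11, 60 were farther apart, and of the 31707 in the whole list 1403 were (4.42%). The domain had 1 distance over 300 kb among its 23, where 5.63% of the distances outside it were so long. KCNQ1 thus had 0.495 CTCF peaks per 100 kb, against 5.42 in the stretch between IGF2 and KCNQ1. The control region at KCNQ1OT1 lies within KCNQ1, and its hg19 position was not read from an annotation here.

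CDKN1C encodes a cyclin-dependent kinase inhibitor that restrains growth. Its stretch (2904400 to 2907000) held 1 CTCF peak, from 2906404 to 2906707, which was weak at fold 6.13, percentile 14.3 and −log10 q 7.01. The strongest CTCF peak of the domain followed it, from 2909600 to 2910043, 2599 bp past CDKN1C. Its fold of 25.9 ranked 1033 of 31754. Its right end reached past the domain, and its summit at 2909811 lay inside.

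CTCF peaks of the domain stood mostly in close groups. The median distance between neighbouring summits was 7.45 kb in the domain (23 distances, exact order-statistic 95% interval 3.25 to 34.1), against 31.6 kb over the rest of chromosome 11 and 35.9 kb over the rest of the list. The interval includes the value of chromosome 11 and not that of the list, and it covers counting error only. Of the 23 distances, 5 were under 2 kb, or 21.7%, where 5.41% of the distances outside the domain were. All 5 were between peaks whose edges were 0.078 to 0.682 kb apart. They are therefore lost when peaks under 1 kb apart are joined, which gave a median distance of 11.6 kb in the domain. Whether they are split calls was not tested. Under 10 kb there were 14, or 60.9%, against 21.9% outside. Over 100 kb there were 3, or 13.0%, against 22.4% outside. The spacing was therefore uneven, with tight groups and 3 long gaps of 102, 103 and 352 kb.

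**Figure D2:**
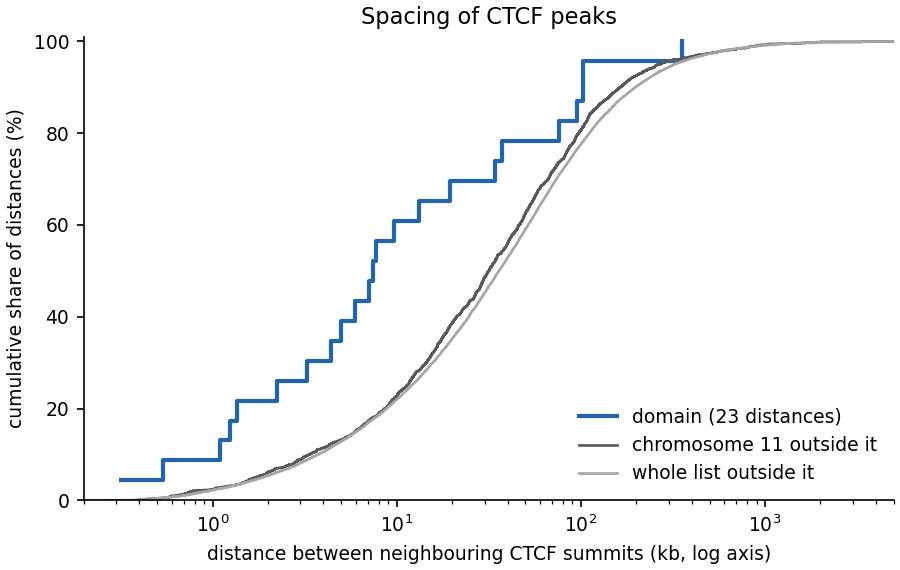
Cumulative share of distances between neighbouring CTCF summits in kb on a log axis, for the domain, for chromosome 11 outside it and for the whole list outside it. The domain's line lies left of both others up to about 100 kb, with a median of 7.45 kb against 31.6 and 35.9 kb.

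The domain held 2.64 CTCF peaks per 100 kb, against 1.21 on chromosome 11 and 1.05 over the list. It made up 0.0756% of the CTCF list (exact Clopper-Pearson 95% interval 0.0484 to 0.112), 2.52 times its share of the sequence. Counted in consecutive windows of the same length, 24 CTCF summits were in the domain, and the 2889 other windows with any CTCF peak had a median of 9. Of these windows 201 held more than the domain (6.96%). The domain lies near the end of chromosome 11, where peaks are denser. Among the 219 windows within 5 Mb of chromosome ends the median was 13 CTCF summits, and 18.3% held more than 24. The stretches of 910 kb just before and just after the domain held 30 and 14 CTCF summits, so the count in the domain lay between those of its neighbours.

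**Figure D3:**
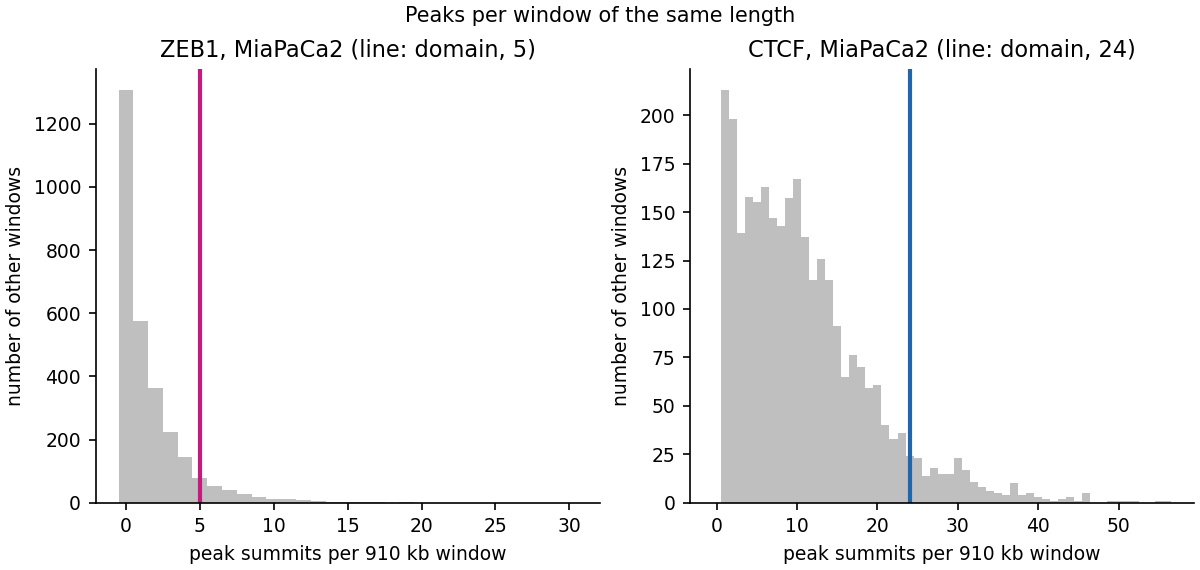
Number of windows of 910 kb with a given number of peak summits, for ZEB1 in MiaPaCa2 (left) and CTCF in MiaPaCa2 (right), over the 2889 other windows with any CTCF peak, with the domain as a line. The domain's 5 ZEB1 and 24 CTCF summits stand in the upper tail of both, where 6.82% and 6.96% of windows held more.

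By strength the CTCF peaks of the domain ran over almost the whole list. Their median fold was 14.3, against 10.8 over the list, and their percentiles ran from 1.99 to 96.7 with a median of 69.1 (exact order-statistic 95% interval 43.4 to 89.2). The interval includes the 50th percentile. Of the 24 peaks, 10 lay above the 75th percentile, as 25.0% of the list does by construction, and 4 lay at or under the 25th. A stricter threshold (fold at least 5, −log10 q at least 10) was met by 20 of the 24, where 80.4% of the list met it. Median width was 470 bp in the domain and 387 bp in the list.

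**Figure D4:**
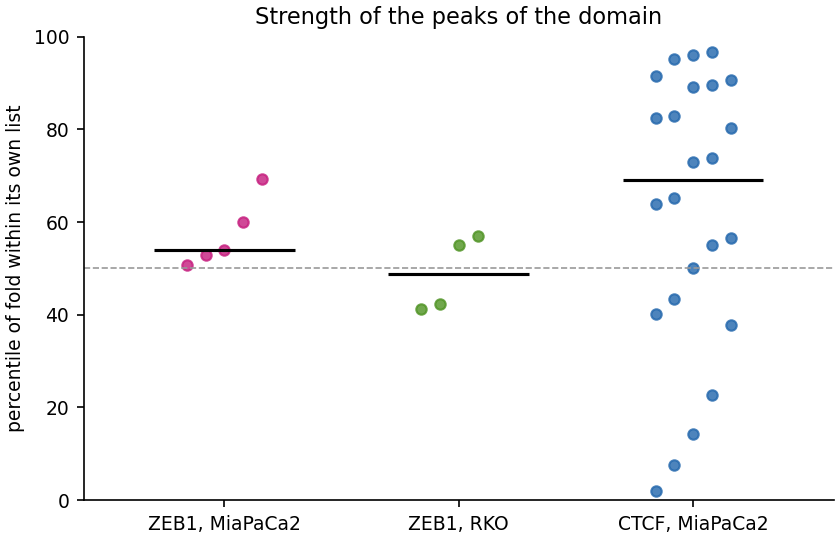
Percentile of each peak's fold within its own list (points) and the median (bars) for ZEB1 in MiaPaCa2, ZEB1 in RKO and CTCF in MiaPaCa2. The ZEB1 peaks sit between percentiles 41.2 and 69.2, while the CTCF peaks spread from 1.99 to 96.7.

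ZEB1 peaks were absent from the domain in both clone lists and of middling strength in the lists of unmodified cells. The delta-Repeat clone had 0 of 2160 peaks here, which allows a share of up to 0.139%, and the WT clone 0 of 1515, which allows up to 0.198%. Unmodified MiaPaCa2 cells had 5 of 4804 (0.104%, exact interval 0.0338 to 0.243) and RKO cells 4 of 7193 (0.0556%, 0.0152 to 0.142). Per length, the domain had 3.47 times the ZEB1 density of the whole list in MiaPaCa2 and 1.85 times in RKO, against 2.52 times for CTCF. Over the density of chromosome 11 it was 3.59 times in MiaPaCa2 and 1.34 times in RKO. Joining peaks under 1 kb apart left 4 ZEB1 peaks in MiaPaCa2 and 4 in RKO, and ZEB1 density was not computed that way. The stretches of 910 kb just before and just after the domain held 6 and 2 ZEB1 summits in MiaPaCa2 and 10 and 9 in RKO. They held 3 and 1 in the delta-Repeat clone and 4 and 2 in the WT clone. The RKO count in the domain was thus below those of both neighbours. Windows without a ZEB1 peak are common in the clone lists. Of the 2889 other windows, 60.5% had 0 in the delta-Repeat clone and 70.9% had 0 in the WT clone. Among the 219 windows near chromosome ends, the shares with 0 were 35.6% and 45.7%. More ZEB1 summits than in the domain were found in 6.82% of all other windows in MiaPaCa2 and in 16.3% in RKO. Near chromosome ends, 26.9% of windows in MiaPaCa2 and 43.4% in RKO held more. The nearest clone peaks ended 404 kb before the domain in both clones and began 41.9 kb (delta-Repeat clone) and 41.8 kb (WT clone) after it.

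In unmodified MiaPaCa2 cells, 4 of the 5 ZEB1 peaks lay between IGF2 and KCNQ1, all of them within the dense CTCF run, and the fifth lay at CDKN1C. The strongest, from 2201831 to 2202181, had fold 8.18, −log10 q 11.1 and rank 1471, and was 5602 bp from the nearest CTCF peak. The peak nearest to IGF2, from 2173036 to 2173388, was 2235 bp past the edge of the IGF2 stretch and had a fold of 7.27. A close pair followed, from 2207432 to 2207641 with a fold of 6.79 and from 2207752 to 2207955 with a fold of 6.57. The CDKN1C peak, from 2906541 to 2906936, had a fold of 6.72. Their −log10 q values ran from 7.30 to 11.1, and all 5 stood above the median of their list by fold, with a median fold of 6.79 against 6.53 over the list. By −log10 q their percentiles were 62.7, 52.0, 44.4, 42.3 and 41.6, so they lay on both sides of the median. Only the strongest reached a fold of 5 with a −log10 q of 10, where 41.9% of the list did.

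In RKO cells the 4 ZEB1 peaks lay at KCNQ1 and on both sides of it. One, from 2444592 to 2444821, with a fold of 5.66, was 21178 bp before KCNQ1. The next, from 2466824 to 2467040, with a fold of 5.71, had its summit 973 bp inside the edge from which KCNQ1 is read. The strongest, from 2719549 to 2719923, lay deep inside KCNQ1 at fold 6.42 and −log10 q 8.40. The last, from 2875335 to 2875587, was 4934 bp past KCNQ1 and had a fold of 6.30. None reached a −log10 q of 10, where 41.0% of the RKO list passed both limits. Their ranks ran from 3095 to 4226 of 7193.

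The ZEB1 peaks of both lines stood at different places. None of the 5 MiaPaCa2 peaks overlapped an RKO peak, although 57.4% of the whole MiaPaCa2 list and 55.1% of its 905 peaks in the same range of fold did. None of the 4 RKO peaks overlapped a MiaPaCa2 peak, where 39.1% of the RKO list and 31.4% of its 1139 peaks in the same range did. The smallest distance between the lists was 11814 bp, from the CDKN1C peak to an RKO peak beyond the domain. Inside the domain it was 30953 bp. None of the 5 MiaPaCa2 peaks was in the delta-Repeat clone list, where 38.0% of the MiaPaCa2 list and 32.5% of its peaks in the same range of fold were. None was in the WT clone list, where the shares were 29.3% and 21.0%. These counts rest on 5 and 4 peaks and were not tested. Read depth is unknown, so a missing peak does not show that ZEB1 was absent. The antibody lot was another in RKO than in unmodified MiaPaCa2 and another again in the clones, so lot and cells cannot be told apart.

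In unmodified MiaPaCa2 cells, 3 of the 5 ZEB1 peaks overlapped a CTCF peak by at least 1 bp, against 20.2% of the whole ZEB1 list and 21.0% of its peaks in the same range of fold. The ZEB1 peak beside IGF2 lay wholly within the widest CTCF peak of the domain, with 353 bp shared and summits 311 bp apart. The ZEB1 peak from 2207752 shared 172 bp with a CTCF peak of fold 11.7, and their summits were 229 bp apart. The CDKN1C peak shared 167 bp with the weak CTCF peak there, and their summits were 155 bp apart. In none of the 3 were summits within 100 bp, and none met 50% of both peaks. Whole-list shares under these rules are not given here, so it is open whether this sets the 3 apart. The other peak of the close pair, from 2207432, ended 142 bp before the CTCF peak. Seen from CTCF, 3 of the 24 peaks overlapped a ZEB1 peak, or 12.5%, against 3.10% of the whole CTCF list.

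**Figure D5:**
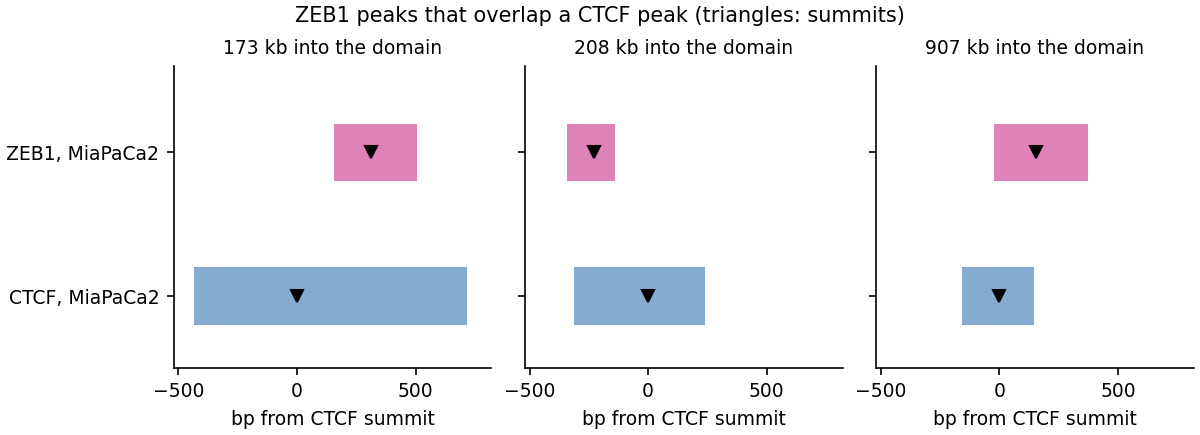
The 3 places where a ZEB1 peak (upper bar) overlapped a CTCF peak (lower bar) in unmodified MiaPaCa2 cells, drawn in bp from the CTCF summit, with triangles at the summits. The ZEB1 summits stand 311, 229 and 155 bp from the CTCF summit.

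None of the 4 RKO peaks overlapped a CTCF peak of MiaPaCa2, where 14.8% of the RKO list did. The nearest was 2205 bp away, at the RKO peak before KCNQ1, and the peak deep inside KCNQ1 was 165125 bp from any CTCF peak. CTCF was profiled in MiaPaCa2 cells only among the samples analysed here, so these distances set RKO peaks against CTCF of another cell line.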

How the data were processed

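ZEB1 or CTCF was precipitated with 10 µg of antibody from chromatin fixed in 1% formaldehyde, and sequenced, per the labels. Per the submitters' processing notes, Bowtie2 2.2.6, MACS2 2.1.0.20150731 and SAMtools were among the tools and hg19 (GRCh37) was the build. Which input each list was called against was not given in the sources used here. Per the deposited lists, fold enrichment is a linear ratio at the summit. Each deposited p-value or q-value is a −log10 from the authors' caller. The deposited score equals 10 times the −log10 q to within 1 and was not used. Read depth is unknown.

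Positions are hg19, counted from 1. Lists were compared with Python 3.11.15, numpy 2.4.6, pandas 2.3.3 and scipy 1.17.1. Overlaps were tested on simulated data and beside bedtools 2.31.1. Chromosome length was the largest peak end over the 5 lists. Chromosome Y, with 1 peak, was left out of spacings and of the summed length used for densities. The list counts behind the densities still included that peak. Intervals and limits from a count of 0 (3 counts) cover counting error only and treat peaks or distances as independent. Gene edges are the rounded ones that defined the domain. Promoter sequence is from RefSeq (GRCh38.p14), where 1 of the 4 member genes matched.

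Peaks were named by rule, namely all CTCF peaks at or upstream of H19, at IGF2 and at CDKN1C, the 10 of highest fold, the closest pair, the widest gap and, with 10 or fewer in a list, all ZEB1 peaks. The remaining CTCF peaks were named after their values were seen. Members and lists were chosen with earlier results of these data known. Alternatives were a stricter threshold, peaks under 1 kb apart joined, the domain extended by 50 kb, equal list lengths, other overlap rules, gaps between peak edges and ranking by −log10 q.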

Additional observations from a re-analysis of the deposited data

How the results depend on the processing

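No paired analysis was possible because no condition has more than 1 sample with peaks. The density, the widest gap and the run of CTCF peaks and their settings were added after seeing the data. Of the planned values 35 were labelled as unchanged and 15 as moved, by limits not given here. Many of the 35 were counts of 0 under settings that can only remove peaks or overlaps, so they could not move. The tally is therefore no measure of stability. Of the added ones 8 stayed and 1 moved. CTCF held 19 to 31 peaks, a density of 2.07 to 2.93 times the list and a median spacing of 7.00 to 11.6 kb and a median percentile of 65.3 to 71.5 in all settings run, and its run of 10 became 6 with a limit of 10 kb. ZEB1 values changed more. With a fold of at least 5 and a −log10 q of at least 10, MiaPaCa2 kept 1 peak and RKO 0, and 0 overlapped CTCF. With equal list lengths both held 0. This does not hold for a cut by fold, by which the strongest MiaPaCa2 peak ranked 1471, within the shortest list's length of 1515. By −log10 q that peak ranked 1787, outside it. With 50% of both peaks or summits within 100 bp, 0 MiaPaCa2 peaks overlapped CTCF. With the domain extended by 50 kb, the delta-Repeat clone and the WT clone had 1 ZEB1 peak each and RKO 11. Then 1 MiaPaCa2 peak was in each of the RKO, delta-Repeat clone and WT clone lists, 1 RKO peak was in MiaPaCa2, and 1 RKO peak overlapped CTCF. Stricter thresholds and overlap rules can only remove peaks or overlaps, and wider edges can only add them. Unknown read depth limits every statement on missing peaks.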

Other observations

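The first place past the domain with a peak in all 5 lists began 41.4 to 41.9 kb beyond its edge. The CTCF peak there, on chromosome 11 from 2951592 to 2952419, had a fold of 34.3, a −log10 q of 102 and rank 294 of 31754, which is above every CTCF peak of the domain. The ZEB1 peak had a fold of 7.36 in the delta-Repeat clone, 7.56 in the WT clone, 7.89 in unmodified MiaPaCa2 cells and 9.40 in RKO. Relative to the CTCF summit, the ZEB1 summit lay 77 bp farther along the chromosome in the delta-Repeat clone and 23 bp farther in unmodified MiaPaCa2 cells. It lay 83 bp before it in the WT clone and 27 bp before it in RKO. All 4 ZEB1 summits were thus within 100 bp of the CTCF summit. A peak of every list, CTCF included, was required here, so nearness to CTCF was partly built into the choice. The ZEB1 peaks of the domain were not chosen in this way, and their summit distances cannot be set against these. This place was singled out after its values were seen. CTCF in the clones and in RKO was not profiled in the samples analysed here.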
